A study of Mus musculus with 16 samples.

Results

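The genes described here encode the receptors for the constant part of IgG, their shared signalling chain, and members of the Ly6 family, several of which are antigens by which myeloid progenitors are sorted. The list held 10 genes, Fcgr1, Fcgr2b, Fcgr3, Fcgr4, Fcer1g, Ly6a, Ly6c1, Ly6c2, Ly6e and Ly6g, and was chosen by name. For 9 of them, out of 22180 genes in all, the table held a probe set annotated with that symbol alone, 1 probe set per gene. Ly6a, which encodes Sca-1, was not analysed here under its own symbol, and whether a probe set annotated as Ly6a2 also detects it was not tested.

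RNA was measured on 16 arrays of myeloid progenitors sorted from the bone marrow of wild-type C57BL/6 mice. Control mice drank water with 2% sucrose, and treated mice drank the same with neomycin, vancomycin, metronidazole and ampicillin at 1 g/L of each, in both cases for 3 weeks. Common myeloid progenitors (CMPs) had 3 control and 3 antibiotic arrays, and granulocyte-monocyte progenitors (GMPs) and committed monocyte progenitors (cMoPs) each had 2 control and 3 antibiotic arrays. The labels give neither the age of the mice nor whether an array held 1 mouse or a pool, so each p-value reflects the spread among these arrays alone, which may be technical. They also do not say whether arrays of the same water and number came from the same mice. If so, the fit treats linked arrays of different progenitors as independent. All cells were negative for CD105 and for a set of lineage antigens and positive for Kit. CMPs were sorted as intermediate and GMPs as high for CD16/32, both without CD115, and cMoPs as positive for CD115 and Ly6C. CD16/32 is the shared antigen of the products of Fcgr3 and Fcgr2b, and Ly6C that of Ly6c1 and Ly6c2. The lineage antibodies included those against Ly6G and Sca-1, which all 3 progenitors therefore had to lack.

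Fc gamma receptors bind IgG on immune complexes and coated particles. The activating receptors of Fcgr1, Fcgr3 and Fcgr4 pair with the Fc receptor gamma chain of Fcer1g, whose ITAM motif is phosphorylated by Src family kinases and recruits the kinase Syk, while the receptor of Fcgr2b carries an inhibitory motif that recruits the phosphatase SHIP1. Ly6 proteins are small surface proteins held by a GPI anchor, and Ly6C, Ly6G and Sca-1 are standard surface markers of monocytes, neutrophils and stem cells. Several Ly6 genes, and Fcgr1 and Fcgr4, are known to respond to interferons in other settings.

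Promoter entries of RefSeq (GRCm38.p6) were matched for 8 of these genes, all but Ly6a and Ly6e. Of these 8, 6 held the letters GAGGAA, the core bound by PU.1, a transcription factor of myeloid cells, on either strand within 250 bases before the most upstream start (Fcgr1, Fcgr3, Fcgr4, Ly6c1, Ly6c2 and Ly6g), against 23.4% of 32536 promoters. Fcgr1 alone of the 8 held the GAS letters TTCNNNGAA of STAT factors (7.04% of promoters), and Fcgr4 alone the letters GAAANNGAA of interferon response elements (7.15%). Such matches describe letters and are not shown to be sites. The last 120 bases before the start are shown for the 3 activating receptors, because they hold these letters close to the start, and for 3 Ly6 genes, because they resemble each other. They read 5′ to 3′ along the gene, with matched letters in capitals. Fcgr1 lies at chr3:96293970-96294089 (minus strand), Fcgr3 at chr1:171059404-171059523 (minus) and Fcgr4 at chr1:171018806-171018925 (plus). Ly6c1 lies at chr15:75048838-75048957 (minus), Ly6c2 at chr15:75111972-75112091 (minus) and Ly6g at chr15:75155141-75155260 (plus).
Fcgr1: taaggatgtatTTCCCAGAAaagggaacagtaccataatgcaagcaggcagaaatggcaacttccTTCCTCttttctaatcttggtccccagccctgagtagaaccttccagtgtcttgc
Fcgr3: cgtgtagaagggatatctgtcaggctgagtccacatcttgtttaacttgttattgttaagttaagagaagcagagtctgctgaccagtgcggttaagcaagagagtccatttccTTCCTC
Fcgr4: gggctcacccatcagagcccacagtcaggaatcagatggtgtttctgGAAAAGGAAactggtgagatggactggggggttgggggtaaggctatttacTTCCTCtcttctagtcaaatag
Ly6c1: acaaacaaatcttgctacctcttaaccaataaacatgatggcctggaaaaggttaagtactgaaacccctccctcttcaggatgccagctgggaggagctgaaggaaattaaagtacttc
Ly6c2: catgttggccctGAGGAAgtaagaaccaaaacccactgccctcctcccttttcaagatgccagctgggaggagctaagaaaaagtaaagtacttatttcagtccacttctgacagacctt
Ly6g: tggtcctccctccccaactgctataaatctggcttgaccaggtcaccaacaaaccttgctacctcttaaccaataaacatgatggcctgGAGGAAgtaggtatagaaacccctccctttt

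The TTCCTC of Fcgr1, Fcgr3 and Fcgr4 is GAGGAA read on the other strand, and began 55, 6 and 22 bases before the start. In Ly6c1 the match lay further upstream than the bases shown. Over the 250 bases the best local alignment of Ly6c1 with Ly6g had 75.7% identical columns, that with Ly6c2 73.2% and that of Ly6c2 with Ly6g 66.7%, against 50.0% to 56.6% for all other pairs among the 8 genes. The Ly6 genes are paralogs of each other, as are the Fc gamma receptor genes, and how far the probes of one gene also detect another was not tested.

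Values are log2 signals, of which the array medians lay between 4.04 and 4.17 and the lower quartiles between 2.89 and 2.99. A difference of 1 is a doubling of signal. The table holds no detection calls, and levels of different probe sets do not rank genes by their transcripts. Where a probe set was read on the scale bears on its precision and, near either end, can also affect the size of differences. The means of Ly6e and Ly6c2 over the 16 arrays stood near the top of all genes (percentiles 99.8 and 99.6). Those of Fcgr1, Fcgr4 and Ly6c1 stood below the middle (45.8, 40.4 and 37.9). Fcgr4 and Ly6c1 had means of 2.85 and 2.73 in control CMPs, below the lower quartile of every array, and are not shown to be above background there.

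**Figure D1:**
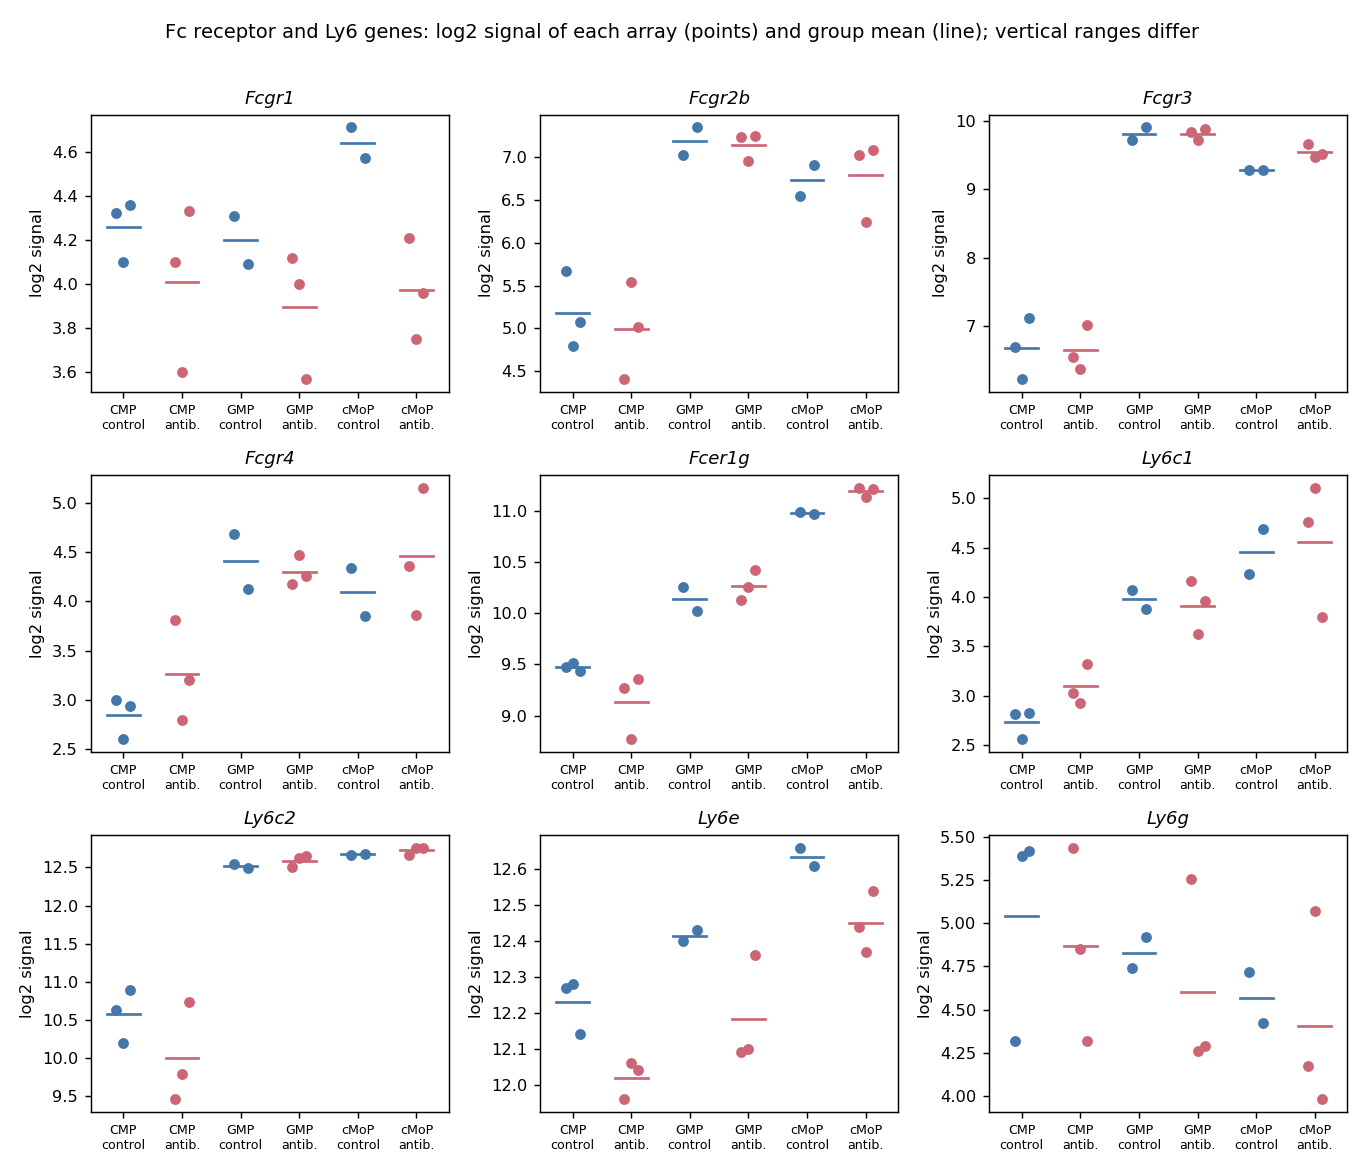
Log2 signal (vertical axis) of each array (points) and the group mean (lines) for the 9 genes in the 6 groups of progenitor and water, control in blue and antibiotic in red, with a vertical range of its own for each gene. Fcgr2b, Fcgr3, Fcgr4, Fcer1g, Ly6c1 and Ly6c2 lie lowest in the CMP arrays, while Fcgr1 and Ly6g vary over less than 1.5 log2 units in all.

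Fcgr3, the low-affinity activating receptor, differed most between the progenitors. Its log2 signals were 6.70, 6.23 and 7.12 in control CMPs and 6.55, 6.38 and 7.02 after antibiotics. In GMPs they were 9.72 and 9.90 in controls and 9.84, 9.72 and 9.87 after antibiotics, and in cMoPs 9.28 and 9.28, and 9.66, 9.47 and 9.51. Every CMP array lay more than 2 log2 units below every other array, and every cMoP array lay below every GMP array. GMPs exceeded CMPs by 3.14 ± 0.15 (SE), 8.84-fold, and cMoPs exceeded CMPs by 2.75 ± 0.15, 6.71-fold. cMoPs lay 0.40 below GMPs (-0.40 ± 0.15, 95% confidence interval -0.73 to -0.07). This last difference was not called. CMPs were sorted as intermediate and GMPs as high for the antigen this gene encodes. Each of these differences thus has a side selected by that antigen, so they describe the gate and no p is given.

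Fcgr2b, the inhibitory receptor and other source of that antigen, was likewise lowest in CMPs. CMP arrays read 5.67, 4.80 and 5.08 in controls and 4.41, 5.54 and 5.02 after antibiotics. GMP arrays read 7.03 and 7.35, and 7.24, 6.96 and 7.25, and cMoP arrays 6.55 and 6.91, and 7.03, 6.25 and 7.09. CMPs lay below all other arrays, and GMPs and cMoPs overlapped. The difference of GMPs from CMPs was 2.08 ± 0.21 (4.24-fold), and that of cMoPs from GMPs was -0.41 ± 0.22 (interval -0.89 to 0.07).

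Fcgr4, an activating receptor of monocytes and neutrophils, was not a gate antigen. It rose from CMPs to GMPs by 1.30 ± 0.22 log2 units (2.46-fold, adjusted p = 0.000511), with CMP arrays between 2.60 and 3.81, GMP arrays between 4.13 and 4.69 and cMoP arrays between 3.85 and 5.16. The CMP arrays lay below all others, and cMoPs differed from GMPs by -0.08 (interval -0.58 to 0.42). Because the CMP level is near the bottom of the arrays' range, the size of the rise is uncertain, and among antibiotic arrays alone it was 1.04 ± 0.31 (adjusted p = 0.0587).

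Fcgr1, the high-affinity receptor of mature monocytes and macrophages, was not called between any progenitors. Its group means ran from 3.90 in antibiotic GMPs to 4.64 in control cMoPs, near the median of all probe sets. cMoPs differed from CMPs by 0.17 ± 0.14 (interval -0.13 to 0.48) and GMPs from CMPs by -0.09 ± 0.14 (-0.39 to 0.22).

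Fcer1g, the signalling chain, rose in steps from CMPs to GMPs to cMoPs. Control CMPs had log2 signals of 9.47, 9.51 and 9.44 and antibiotic CMPs 9.27, 8.77 and 9.36. GMPs had 10.26 and 10.02, and 10.13, 10.26 and 10.42, and cMoPs had 10.99 and 10.97, and 11.23, 11.14 and 11.22. No array of one progenitor overlapped those of another. GMPs exceeded CMPs by 0.90 ± 0.11 (1.87-fold, adjusted p = 1.7e-05) and cMoPs exceeded GMPs by 0.88 ± 0.12 (1.84-fold, adjusted p = 0.00012). With control arrays alone the second step was 0.84 ± 0.17 and was no longer called (adjusted p = 0.062).

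Ly6c2, which encodes the Ly6C of monocytes, was higher in GMPs than in CMPs. Control CMPs read 10.63, 10.20 and 10.89 and antibiotic CMPs 9.46, 9.79 and 10.74. GMPs read 12.54 and 12.49, and 12.50, 12.62 and 12.65, and cMoPs 12.66 and 12.68, and 12.66, 12.75 and 12.76. The GMP arrays, whose sort did not use Ly6C, thus all lay above the CMP arrays and just below the cMoP arrays. GMPs exceeded CMPs by 2.27 ± 0.18 (4.81-fold, adjusted p = 1.77e-07). cMoPs differed from GMPs by 0.14 ± 0.19 (interval -0.26 to 0.55), given without a test because cMoPs were selected for Ly6C. Whether signals this close to the top of the scale are compressed was not tested.

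Ly6c1, its paralog, was read low on the scale in every group. GMPs exceeded CMPs by 1.03 ± 0.19 (2.05-fold, adjusted p = 0.00117), from arrays of 2.56 to 3.32 to arrays of 3.62 to 4.16, and among antibiotic arrays alone by 0.82 ± 0.28 (adjusted p = 0.102). The cMoP arrays spread from 3.80 to 5.11 and overlapped those of GMPs, with a difference of 0.56 ± 0.20 (interval 0.13 to 1.00). It was not called, and no p is given because cMoPs were selected for Ly6C. The ranges of CMPs and GMPs did not overlap, although control CMPs averaged below the lower quartiles.

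Ly6e, a broadly expressed family member known as an interferon-induced gene, rose from CMPs to cMoPs. Its means over both waters were 12.12 in CMPs, 12.30 in GMPs and 12.54 in cMoPs. cMoPs exceeded CMPs by 0.42 ± 0.08 (1.34-fold, adjusted p = 0.00184), with no overlap of arrays, while the neighbouring steps of 0.17 ± 0.08 and 0.24 ± 0.09 did not pass (adjusted p = 0.205 and 0.16). With trend and robust variances both steps passed (adjusted p = 0.0206 and 0.00683), and with control arrays alone the difference of cMoPs from CMPs did not (0.40 ± 0.15, adjusted p = 0.162).

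Ly6g, the neutrophil antigen that the lineage panel removed, had no call between progenitors. Arrays of CMPs lay between 4.32 and 5.44, those of GMPs between 4.26 and 5.26 and those of cMoPs between 3.98 and 5.07, and the groups overlapped throughout. cMoPs differed from CMPs by -0.47 ± 0.27 (interval -1.05 to 0.11). The 12 markers of mature neutrophils had a mean log2 signal of 7.24 to 7.69 in CMP arrays, 7.02 to 7.33 in GMP arrays and 6.76 to 7.06 in cMoP arrays (sums of 86.94 to 92.30, 84.18 to 87.98 and 81.17 to 84.67; Mrgpra2b lay below the lower quartiles in control cMoPs), and their part in the Ly6g values was not tested.

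**Figure D2:**
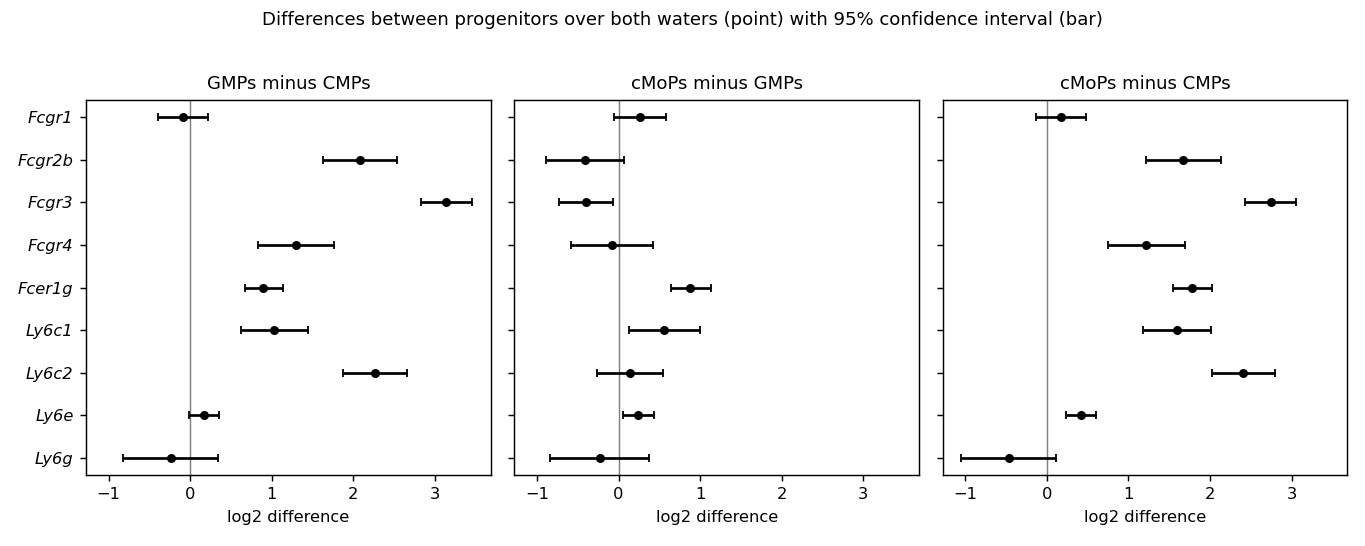
Log2 differences (horizontal axis) between progenitors, averaged over both waters, for the 9 genes, with 95% confidence intervals of the fit as bars. Fcgr3 shows the widest step from CMPs to GMPs (3.14) and Fcer1g the widest from GMPs to cMoPs (0.88).

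Of the 7 genes that did not define the gate between GMPs and CMPs, 4 were called at an adjusted p under 0.05 (Fcgr4, Fcer1g, Ly6c1 and Ly6c2), all higher in GMPs, against a background of 16.0% of genes (7.87% higher, 8.17% lower). Between cMoPs and CMPs 3 of the 5 genes that did not define a gate between progenitors were called (Fcgr4, Fcer1g and Ly6e). All 3 were higher in cMoPs, against calls in 18.9% of genes (9.72% higher, 9.20% lower). Between cMoPs and GMPs Fcer1g was the 1 gene called of these 5, higher in cMoPs, against calls in 5.42% of genes (2.60% higher, 2.82% lower). Without the gate genes the median difference was 0.90, 0.42 and 0.24 in these comparisons, against 0.02, 0.04 and 0.01 over all genes. The 3 comparisons share their arrays. The genes counted here are not all free of the sort. They include Ly6g, whose protein the lineage panel selected against in all 3 progenitors. They also include Fcer1g, whose chain pairs with the Fcgr3 receptor of the gate, so its calls may not be independent of that gate. Whether sorting on that receptor also selects for Fcer1g RNA was not tested.

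The other sort antigens were read as a check of the labels. Csf1r, the gene of CD115, averaged 6.81 in CMPs, 7.39 in GMPs and 9.34 in cMoPs, and Kit 10.51, 10.03 and 9.41. Eng, the gene of CD105, averaged 8.33 in CMPs, 6.71 in GMPs and 7.12 in cMoPs, although its protein was selected against throughout. Of 12 genes of such antigens in all, 2 were called higher and 3 lower in GMPs than in CMPs (41.7%, against 16.0% of all genes). Itgam, the gene of the lineage antigen CD11b, was 1.11 ± 0.12 higher in GMPs than in CMPs and differed by -0.97 ± 0.12 between cMoPs and GMPs. Itga2, the gene of the lineage antigen CD49b, differed by -0.98 ± 0.21 between GMPs and CMPs and by -1.13 ± 0.21 between cMoPs and CMPs. The 12 monocyte markers averaged 6.51 to 7.23 in CMP arrays, 7.03 to 7.63 in GMP arrays and at most 9.27 in cMoP arrays (group means 9.04 and 9.18). All 12 were called higher in cMoPs than in CMPs, against 9.72% of all genes. Csf1r is one of the 12, and its call is not independent of the CD115 gate. The 10 erythroid and megakaryocyte markers averaged 8.16 to 8.35 in CMP arrays, 5.51 to 6.07 in GMP arrays and 4.83 to 5.01 in cMoP arrays (sums of 81.56 to 83.53, 55.13 to 60.70 and 48.26 to 50.13), with none below the lower quartiles. All 10 were called lower in GMPs and in cMoPs than in CMPs, against 8.17% and 9.20% of all genes. The 12 markers of eosinophils, basophils and mast cells, which also carry Fc receptors, averaged 5.24 to 5.68 in CMP arrays, 6.28 to 6.51 in GMP arrays and 4.18 to 4.37 in cMoP arrays, and Fcer1a lay below the lower quartiles in every group. In sorted bulk RNA a smaller share of cells with a transcript and less of it per cell cannot be told apart, and the part of these cell types in the levels of Fcgr2b, Fcgr3, Fcer1g and Ly6c2 was not tested.

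By the root mean square difference of centred values over the 16 arrays, the genes closest to Fcgr3 were Nucb2 (0.195 log2 units), Ms4a3, a gene of granulocyte-monocyte progenitors (0.224), and Igsf6 (0.233). Closest to Ly6c2 were Elane, the gene of neutrophil elastase (0.227), Dram1 (0.235) and Mmp19 (0.257). Elane averaged 10.07 in CMPs, 12.8 in GMPs and 12.53 in cMoPs. Closest to Fcer1g were Rogdi (0.224), Cd68, a lysosomal glycoprotein of monocytes and macrophages (0.227), and Gria3 (0.237). The nearest genes of Fcgr2b (Hvcn1, Gsr and Hk3, 0.325 to 0.336), Fcgr4 (C1rl, Nxn and Alcam, 0.301 to 0.304) and Ly6c1 (Nfam1, Tyrobp and Cyp4f16, 0.302 to 0.321) were less close. Fcgr1, Ly6e and Ly6g were not ranked because their group means span under 1 log2 unit.

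Counts in the pathway lists that follow stand beside calls in 16.0% of all genes between GMPs and CMPs, 18.9% between cMoPs and CMPs and 5.42% between cMoPs and GMPs. The lists were chosen with earlier results of these data known, so their shares are not independent of them. The first list held 14 measured genes, of receptors that use the gamma chain or other adaptor chains and of the adaptors Tyrobp and Hcst. It is thus not a list of gamma chain partners alone. Of the 14, 5 were called higher and 1 lower in GMPs than in CMPs (42.9%, median difference 0.23). In cMoPs 7 were called higher and 1 lower than in CMPs (57.1%, median difference 0.51). Clec5a, a receptor that signals through adaptor chains, rose by 3.55 ± 0.21 in GMPs over CMPs, and in cMoPs over CMPs 16.1-fold. Tyrobp, the adaptor DAP12, rose by 0.76 ± 0.08 from CMPs to GMPs and by a further 0.57 ± 0.09 to cMoPs, and Hcst, the adaptor DAP10, by 1.05 ± 0.12 from CMPs to GMPs. Trem1, a receptor that uses DAP12, rose by 1.44 ± 0.17 in GMPs over CMPs. Between cMoPs and GMPs 4 were called higher and 1 lower, with Trem2 at 1.70 ± 0.24, Cd300lb at 0.86 ± 0.19 and Clec4b1 also called, from a GMP mean of 2.25 that is not shown to be above background to 3.39 in cMoPs. Every adjusted p in this paragraph was at most 0.011.

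Of 30 measured genes of activating Fc receptor signalling, 13 were called higher and 5 lower in GMPs than in CMPs, 17 higher and 5 lower in cMoPs than in CMPs, and 3 in each direction between cMoPs and GMPs (60%, 73.3% and 20% of them). Card9, an adaptor downstream of ITAM receptors, exceeded CMPs by 1.72 ± 0.12 in GMPs and 1.27 ± 0.12 in cMoPs. The 2 related membrane adaptors Lat and Lat2 moved apart. Lat fell by 2.18 from CMPs to GMPs (SE 0.17) and was 0.89 ± 0.18 lower again in cMoPs (-0.89), while Lat2 rose by 1.68 ± 0.17 from GMPs to cMoPs. Prkcd, a protein kinase C, rose by 1.22 ± 0.10 and Vav3, an exchange factor, by 0.94 ± 0.10 from CMPs to cMoPs. Cbl, a ubiquitin ligase, rose by 0.74 ± 0.09 from CMPs to GMPs, and Tec, a kinase, fell by 0.53 from GMPs to cMoPs (SE 0.12). Adjusted p-values of these genes were at most 0.0118.

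Of 18 measured genes of inhibitory signalling and inhibitory receptors, 7 were called higher and 2 lower in GMPs than in CMPs and 8 higher and 2 lower in cMoPs than in CMPs (50% and 55.6% of them). The inhibitory receptor genes Lair1 and Clec12a rose by 2.42 ± 0.15 and 2.09 ± 0.12 from CMPs to GMPs, and Sirpa, the receptor for CD47, by 1.32 ± 0.11. Dok3, an adaptor, rose by 1.41 ± 0.13. From GMPs to cMoPs Siglece rose by 1.25 ± 0.28 and Ptpn6, the phosphatase SHP-1, by 0.34 ± 0.09, while Lair1 fell by 0.57 (SE 0.16). These were the calls between cMoPs and GMPs, 2 higher and 1 lower (16.7% of the 18, against 5.42% of all genes), with adjusted p between 0.0122 and 0.0439. Of 14 other antibody-binding genes, 1 was called higher in GMPs than in CMPs, and 1 was called higher and 2 lower in cMoPs than in CMPs (7.14% and 21.4% of them, near or below the shares of all genes). Between cMoPs and GMPs 1 was called higher and 1 lower, 14.3% of them against 5.42% of all genes. Ms4a2, the beta chain of the IgE receptor, rose by 0.89 ± 0.15 from CMPs to GMPs and was 2.68 lower in cMoPs than in GMPs (-2.68 ± 0.16). Fcgrt, the neonatal Fc receptor, exceeded GMPs by 1.15 ± 0.21 and CMPs by 0.80 ± 0.20 in cMoPs, and Trim21, a cytosolic antibody receptor, fell by 0.62 from CMPs to cMoPs (SE 0.16).

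Of 35 measured genes of the wider Ly6 and uPAR superfamily, 1 was called higher and 2 lower in GMPs than in CMPs, and 2 higher and 3 lower in cMoPs than in CMPs. These are 8.57% and 14.3% of the list, below the 16.0% and 18.9% of all genes, and the list does not hold Ly6a2 or Ly6g6g, of which Ly6a2 was called higher in both comparisons (2.31 ± 0.13 and 3.59 ± 0.13). Plaur, the urokinase receptor, rose by 1.33 ± 0.12 from CMPs to GMPs. Cd59a, which blocks the complement membrane attack complex, fell by 2.35 (SE 0.18) and lay 0.95 lower again in cMoPs (-0.95 ± 0.19), to a mean of 3.32. Its paralog Cd59b was lower in GMPs than in CMPs, with means of 2.88 and 3.48, the former not shown to be above background, and Ly6d differed by -0.59 ± 0.13 between cMoPs and CMPs. All of these passed, with adjusted p-values of at most 0.00634. Of 25 measured genes that build the GPI anchor, 2 were called higher and 1 lower in GMPs than in CMPs, and 4 higher and 4 lower in cMoPs than in CMPs (12% and 32% of them), with Pigq at -0.61 ± 0.11 and Pgap2 at 0.49 ± 0.10 in GMPs over CMPs.

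Antibiotic water was compared with control water to ask which of these genes differ with the treatment. None of the 9 was called at an adjusted p under 0.2 by limma in CMPs, GMPs, cMoPs or as the mean of the 3 progenitors, where 0.0406%, 0.0721%, 0.131% and 0.514% of all genes were called. At an unadjusted p under 0.05 there were 2, 0, 1 and 2 of the 9, against 7.24%, 7.49%, 6.2% and 9.54% of all genes. The median difference of the 9 was -0.19, -0.06, 0.06 and -0.06. The effect of water was not called as differing between progenitors for any of the 9 at an adjusted p under 0.2 (0.00451% of genes called), and 1 gene, Fcer1g, had an unadjusted p under 0.05.

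Ly6e was lower after antibiotics in each progenitor. Control CMPs read 12.27, 12.28 and 12.14 and antibiotic CMPs 11.96, 12.06 and 12.04. GMPs read 12.40 and 12.43 in controls and 12.09, 12.10 and 12.36 after antibiotics, and cMoPs 12.66 and 12.61, and 12.44, 12.37 and 12.54. Within its progenitor, each antibiotic array was thus lower than all control arrays, which held for 0.252% of all genes and for 1 of the 9. The mean difference was -0.21 ± 0.07 (interval -0.36 to -0.06) and did not pass over all genes (adjusted p = 0.345), while it passed with trend and robust variances (adjusted p = 0.0429) or among genes brighter than the median gene (adjusted p = 0.185). In CMPs, GMPs and cMoPs the differences were -0.21 ± 0.11, -0.23 ± 0.13 and -0.18 ± 0.13.

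Fcgr1 had a difference of -0.41 ± 0.12 as the mean of the progenitors (interval -0.66 to -0.15, unadjusted p = 0.00373, adjusted p = 0.277), in 3 of 3 progenitors negative. Control cMoPs read 4.71 and 4.57 and antibiotic cMoPs 4.21, 3.75 and 3.96, so the waters did not overlap there (-0.67 ± 0.21, adjusted p = 0.622). They overlapped in CMPs (4.32, 4.10 and 4.36 against 4.10, 3.60 and 4.33) and in GMPs (4.31 and 4.09 against 3.57 to 4.12). As the mean of the progenitors 7 of 28 measured type I interferon genes (25%) were called lower, against 0.514% of all genes called in either direction, and 0 of the 28 in any single progenitor (8, 7 and 9 at an unadjusted p under 0.05 in CMPs, GMPs and cMoPs). Among the 7 were Oas3 (-0.75 ± 0.12) and Ifitm3 (-0.47 ± 0.09). The list was chosen with earlier results of these data known, so its share of calls is not independent of them. The median difference of the 28 was -0.29, and their mean per array was 5.87 to 6.18 after antibiotics and 6.28 to 6.38 in controls in CMPs, 5.44 to 5.71 and 5.84 to 5.95 in GMPs, and 5.34 to 5.46 and 5.71 to 5.84 in cMoPs. Whether the levels of Ly6e and Fcgr1 are tied to those genes was not tested.

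Ly6c2 differed by -0.58 ± 0.24 in CMPs (interval -1.09 to -0.06, adjusted p = 0.655). The third antibiotic array, at 10.74, lay among the controls, and the other two lay below all of them. Without that array the difference was -0.95 ± 0.18 and was called (adjusted p = 0.102). In GMPs and cMoPs it was 0.08 ± 0.27 and 0.05 ± 0.27. The monocyte markers averaged 6.51, 6.70 and 6.86 in the antibiotic CMP arrays, in replicate order, and 7.04 to 7.23 in the control CMP arrays. Of the 12, 2 had a positive difference in CMPs. In CMPs 1 of the 12 was called lower, and as the mean of the progenitors 4 were, against 0.0406% and 0.514% of all genes called in either direction. This list was also chosen with earlier results of these data known. In GMPs, where the Ly6c2 difference was 0.08, the mean of these markers was lower after antibiotics too, without overlap (7.03 to 7.42 against 7.54 and 7.63), and 0 were called. In cMoPs it was not lower (group means 9.18 after antibiotics and 9.04 in controls). There 6 of the 12 had a positive difference and 0 were called. Csf1r, itself one of the 12 markers, read 6.50, 6.42 and 6.63 after antibiotics and 7.06, 7.18 and 7.05 in control CMPs, without overlap (-0.58 ± 0.17, adjusted p = 0.425). Their part in the Ly6c2 values was not tested.

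**Figure D3:**
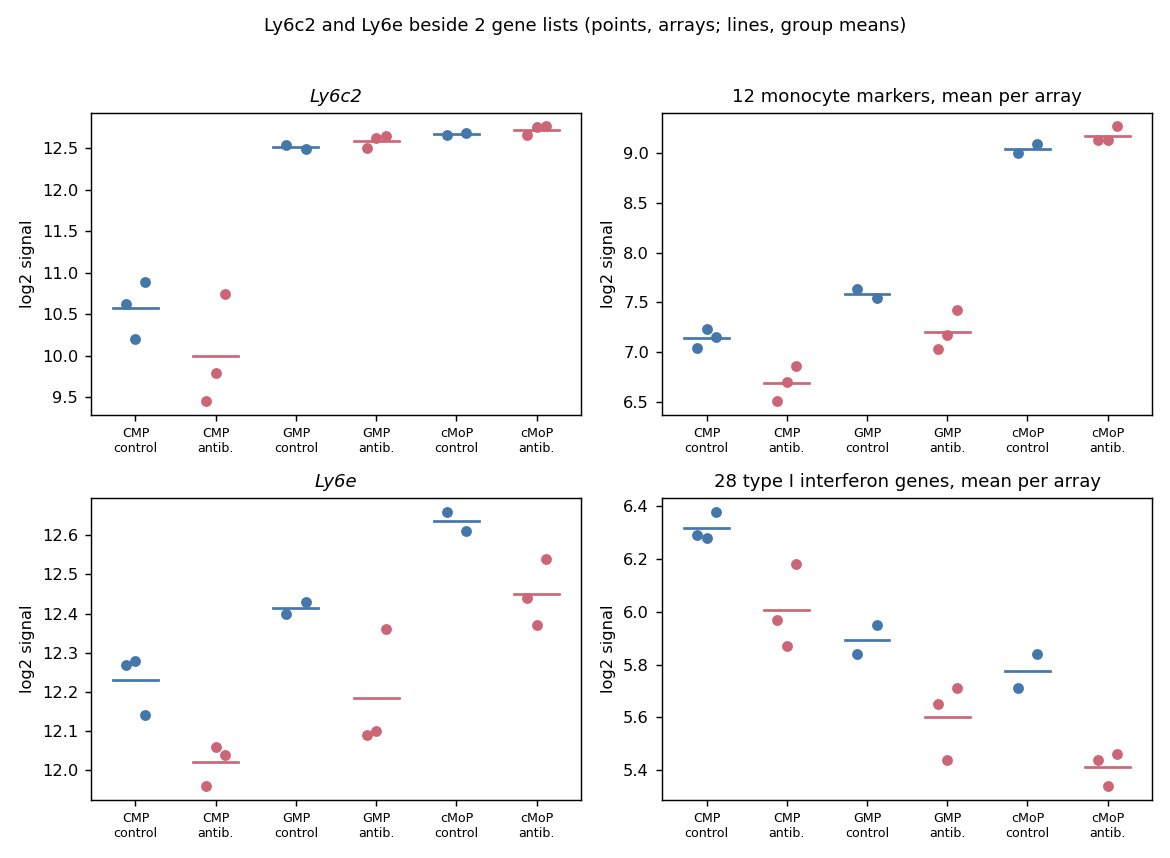
Log2 signal (vertical axes) of Ly6c2 and Ly6e per array, beside the mean per array of 12 monocyte markers and of 28 type I interferon genes, in the 6 groups, with control in blue, antibiotic in red and lines at group means. Among CMPs the antibiotic arrays lie below the control arrays for Ly6e and both lists, and for Ly6c2 1 antibiotic array (10.74) lies among the controls.

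For Fcer1g the difference was -0.34 ± 0.15 in CMPs, and it was 0.13 ± 0.16 in GMPs and 0.22 ± 0.16 in cMoPs. The antibiotic arrays lay below all controls in CMPs and above both controls in cMoPs. Fcgr3 did the latter too, by 0.27 ± 0.22 in cMoPs. It differed by -0.03 ± 0.20 in CMPs and by 0.00 ± 0.22 in GMPs (95% confidence interval -0.46 to 0.46). In both waters CMPs and GMPs were sorted by their level of the antigen that Fcgr3 and Fcgr2b encode. In these progenitors the differences of both genes thus describe cells within a fixed gate. Whether antibiotics change their RNA beyond that gate was not tested. Fcgr2b differed by -0.19 ± 0.28, -0.04 ± 0.32 and 0.06 ± 0.32, and Fcgr4 by 0.42 ± 0.30, -0.11 ± 0.33 and 0.37 ± 0.33, in CMPs, GMPs and cMoPs. Ly6c1 differed by 0.36 ± 0.26 in CMPs, with every antibiotic array above the controls at levels near the lower quartiles, and Ly6g by -0.19 ± 0.23 as the mean of the progenitors. The waters did not overlap for 3 of the 9 genes in CMPs (11.6% of all genes), 1 in GMPs (23.0%) and 4 in cMoPs (21.0%).

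**Figure D4:**
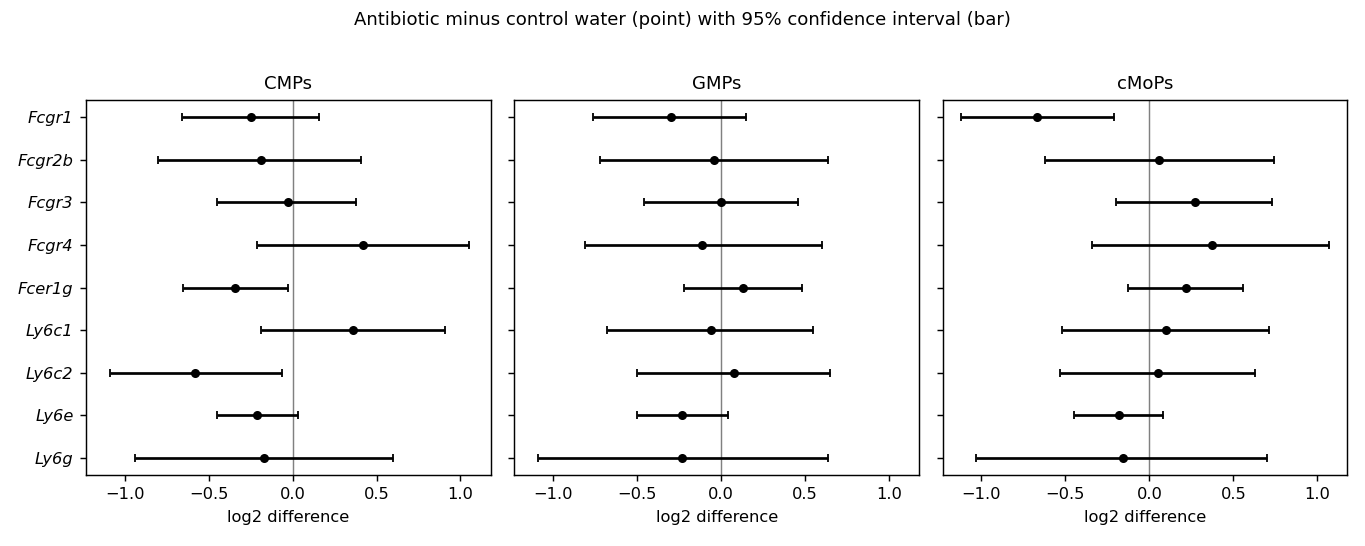
Log2 differences (horizontal axis), antibiotic minus control, for the 9 genes in each progenitor, with 95% confidence intervals of the fit as bars. Ly6e lies below 0 in the 3 progenitors (-0.21, -0.23 and -0.18), and Fcgr1 reaches -0.67 in cMoPs.

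Among the other genes of these pathways, 1 partner or adaptor and 1 inhibitory receptor were called in cMoPs, Lilrb4a (1.39 ± 0.27, adjusted p = 0.14) and Clec4b1 (adjusted p = 0.156), both higher after antibiotics. The control mean of Clec4b1, 2.83, is not shown to be above background, and its antibiotic mean was 3.95. Hcst rose by 0.42 ± 0.10 as the mean of the progenitors (adjusted p = 0.183). Of the 30 genes of activating signalling limma called 0 in any of the 4 comparisons of water, with 4, 1, 1 and 3 at an unadjusted p under 0.05 in CMPs, GMPs, cMoPs and their mean. Of the 35 other Ly6 and uPAR genes it called 0, with 3, 2, 6 and 4, and of the 25 anchor genes 0, with 1, 1, 1 and 2. Over all genes 7.24%, 7.49%, 6.2% and 9.54% had such a p.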

How the data were processed

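Signals were deposited by the authors on a log2 scale, with a value for each probe set in each array. The submitters' processing notes name Transcriptome Analysis Console and Partek. The sources used here give no version, summarisation or normalization. Of 41345 probe sets, 23521 with 1 symbol were used, the brightest per gene by mean over 16 arrays, which gave 22180 genes (1814 with several symbols and 16010 unnamed ones were not used here). No gene was filtered and nothing was rescaled.

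A linear model of the 6 group means was fitted in limma 3.58.1 (R 4.3.3), with 10 residual degrees of freedom, and Benjamini-Hochberg adjusted p-values cover all genes. Effects of water were called at 0.2, the rate of the study's 2-way analysis of variance, and differences between progenitors at 0.05. All tests are two-sided, errors of differences are SE, and the fit was tested on simulated data. The number of arrays limits the precision. Named were the 9 genes, of each pathway list and comparison up to 4 called genes of smallest p (not every such gene is repeated here), Kit, Eng and Csf1r, and the 3 nearest genes. Genes and lists were chosen with earlier results of these data known. Alternatives covered filters, probe sets, variances, scaling, blocks and subsets of arrays.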

Additional observations from a re-analysis of the deposited data

Results flagged for a closer look

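Fcer1g was singled out because its arrays moved in opposite directions: every antibiotic CMP array lay below every control CMP array, and every antibiotic cMoP array lay above both control cMoP arrays. The difference in cMoPs exceeded that in CMPs by 0.56 ± 0.22 log2 units. The interaction test of limma gave an unadjusted p of 0.0439 and an adjusted p of 0.851, so the difference between progenitors did not pass, and 3.41% of all genes show such opposite separations in at least 1 pair of progenitors.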

How the results depend on the processing

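The calls among the 9 genes, gate genes included, ranged from 4 to 7 between GMPs and CMPs (6 as reported) and from 5 to 7 between cMoPs and CMPs (7 as reported) over the alternatives run, of which the filter on dim genes tested only 6 of the 9. Between cMoPs and GMPs the count of 1 became 2 with trend and robust variances, 1 to 2 when single arrays were left out, and 0 with control arrays only. For the mean effect of antibiotics the count of 0 became 1 (Ly6e) with trend and robust variances and 1 among genes brighter than the median gene, and in CMPs it was 0 to 1 when single arrays were left out (1 being Ly6c2 without the third antibiotic array). Without the third antibiotic cMoP array, Ly6c1 joined the count between cMoPs and GMPs (0.75 ± 0.15). Because cMoPs were selected for Ly6C, that value describes the gate and is given without a test. With the replicate number as a block the counts were 0 for each comparison of water and for the interaction, and 6, 1 and 7 between progenitors; the block changed no call of the 9 genes. Same-numbered arrays of the 2 waters did not deviate together (r -0.0275 to 0.0261 over 7 pairs), which does not exclude a shared day or batch. In groups of 2 arrays the deviations mirror each other, which limits this check. Arrays of different progenitors with the same water and number had r of -0.049 to 0.104 over 15 pairs. With water and number as a random block no call of the 9 genes changed. The mean effect of antibiotics then had 97 calls over all genes in place of 114. No called difference changed sign. Centring each array, quantile normalization and the mean of a gene's probe sets changed no call of the 9 genes. Counts over all genes moved more: for the mean effect of antibiotics they were 114 as reported, 353 among brighter genes, 350 with trend and robust variances, 59 with all probe sets and 41 to 269 when single arrays were left out. In CMPs they were 9, then 35, 61, 2 and 2 to 39, and 16 with the replicate block. In GMPs 16 became 27 among brighter genes and with trend and robust variances, and in cMoPs 29 became 9 with all probe sets and 8 with the block, with 2 to 42 and 3 to 226 when single arrays were left out. Each progenitor fitted alone gave 1, 0 and 2. With each array centred on its median the calls of the mean effect were 33 higher and 54 lower in place of 60 and 54, and in CMPs 5 and 8 in place of 5 and 4. The interaction was called for 1 gene as reported and for 9 with trend and robust variances, and for 1 to 24 when single arrays were left out (24 without cMoP control 2, 8 without GMP control 1). Control arrays alone gave 1166, 210 and 1507 calls between progenitors in place of 3558, 1202 and 4195, and antibiotic arrays alone 2346 between GMPs and CMPs, with fewer arrays. The dim signals of Fcgr1, Fcgr4 and Ly6c1 limit what can be said of their size.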

Other observations

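Ly6a2, a Ly6 gene outside the list that was picked after its values were seen (probe set 17318105), rose at each step between the progenitors. Its log2 signals were 7.73, 7.39 and 8.02 in control CMPs and 7.32, 7.46 and 7.94 after antibiotics, 9.76 and 9.55 against 10.42, 10.18 and 10.18 in GMPs, and 10.94 and 10.89 against 11.58, 11.54 and 11.52 in cMoPs. GMPs exceeded CMPs by 2.31 ± 0.13 (adjusted p = 2.82e-09) and cMoPs exceeded GMPs by 1.27 ± 0.14 (adjusted p = 1.69e-05). The difference after antibiotics was -0.14 ± 0.17 in CMPs, 0.61 ± 0.19 in GMPs and, for cMoPs, 0.63 ± 0.19. The waters did not overlap in GMPs and cMoPs, as for 23.0% and 21.0% of all genes. The difference did not pass over all genes by limma (adjusted p = 0.499 in GMPs and 0.617 in cMoPs). The interaction test gave an unadjusted p of 0.0123 and an adjusted p of 0.774. The direction of Ly6a2 after antibiotics in GMPs and cMoPs was opposite to that of Ly6e. The probe annotation names this probe set Ly6a2, and whether it detects Ly6a, the gene of the lineage antigen Sca-1, or other Ly6 transcripts was not tested.

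Csf1r, the receptor gene behind the CD115 gate, differed by -0.37 ± 0.11 after antibiotics as the mean of the progenitors (adjusted p = 0.273), with -0.58 ± 0.17 in CMPs, -0.43 ± 0.19 in GMPs and -0.10 ± 0.19 in cMoPs, the progenitor selected for its protein.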
